A study of Mus musculus with 6 samples.

Results

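The Hox genes of the mouse are homeobox transcription factor genes that lie side by side in the clusters HoxA, HoxB, HoxC and HoxD. They were taken from the deposited gene table as the protein-coding rows whose symbol is Hox, a cluster letter from a to d and a paralog number, which gave 39 of its 41214 genes. HoxA contributed 11 genes, HoxB 10, HoxC 9 and HoxD 9. Genes with the same number in different clusters are paralogs, copies of one ancestral gene.

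Hox proteins bind DNA through a homeodomain and give cells along the body axis their regional identity. Within a cluster the order of the genes on the chromosome follows the order in which they are used along the body, from the anterior group 1 to the posterior group 13. Polycomb complexes keep unused Hox genes silent, Trithorax complexes and retinoic acid help to open them, and the TALE proteins of the Pbx and Meis families bind DNA together with Hox proteins. In the mammary gland the group 9 genes are known to be needed together for the growth of the gland in pregnancy and lactation.

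The samples were cultured cells from mammary tumor explants, grown in medium with serum, insulin and G418. NMuMG, an epithelial line of the mouse mammary gland, was their origin, and all of them carried Neu-NT, a constitutively active ErbB2 receptor. In the group shCdGAP (3 libraries) the genotype label names a short hairpin RNA against CdGAP, a GTPase-activating protein for Rac1 and Cdc42 encoded by Arhgap31, and in the group shCON (3 libraries) it names the control hairpin. The cell type label reads shCTL for all 6 libraries, so the groups rest on the titles and the genotype label. Whether libraries of 1 group stem from different cultures or clones is not labelled, so p-values rest on the spread among these libraries alone, and that spread may be technical.

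Values are FPKM, reads scaled to the length of the gene and to the depth of the library, as deposited. Recovered reads ranged from 19176540 to 26824249 per library. Arhgap31 read 0.149, 0.826 and 0.748 FPKM in shCdGAP replicates 1 to 3 and 1.19, 1.30 and 1.35 FPKM in shCON. The groups did not overlap, but the difference of -0.56 on the log2(FPKM + 1) scale (SE 0.18) did not pass limma's threshold (adjusted p = 0.0836), and it passed without shCdGAP replicate 1 (adjusted p = 0.0157). That library stood apart from the others of its group, with correlations of log2(FPKM + 1) over genes of 0.948 and 0.938 with replicates 2 and 3, which correlated with each other at 0.996. It was also the library with the lowest Arhgap31 value, so leaving it out removes the most depleted sample. The luminal keratin genes Krt8 and Krt18, picked out after their values were seen, had 1491 to 3022 FPKM across the 6 libraries. The epithelial marker Epcam had no reads in shCdGAP and at most 0.812 FPKM in shCON. Cdh1, another epithelial marker, went the other way, with 184, 152 and 167 FPKM in shCdGAP and 37.9, 56.9 and 57.2 FPKM in shCON.

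Of the 39 Hox genes, 13 had no read in any library and 26 had at least 1 read. The test was limma on log2(FPKM + 1) over the 13483 genes with enough reads, with an adjusted p below 0.05 counted as a change, and 15 Hox genes entered it. Hoxa9, Hoxb3, Hoxb8 and Hoxb13 were higher in shCdGAP and Hoxc6 was lower. In all, 5 Hox genes changed, beside 21.0% of all tested genes (9.92% higher and 11.1% lower), and 10 of the 15 tested did not pass. Hoxb8, Hoxb13 and Hoxc6 entered the test through the reads of a single group. Hoxb9 met the read filter in shCdGAP and, of the shCON libraries, only in replicate 1. The filter thus favours genes that are high in 1 group, and the share of tested Hox genes that changed is no evidence about the clusters. Without shCdGAP replicate 1 the test called 7 Hox genes higher and 3 lower, and 39.9% of all tested genes.

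The homeobox stretch below shows how far 3 of the changed genes are alike in the part that meets DNA. It covers codons 42 to 58 of the homeobox, the part that encodes the helix lying in the major groove of the DNA, from GENCODE M21 transcripts (GRCm38). Capitals mark codons 48 to 53, which were used to find the homeobox.
Hoxb8: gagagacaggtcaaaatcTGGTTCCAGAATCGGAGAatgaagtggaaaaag
Hoxb13: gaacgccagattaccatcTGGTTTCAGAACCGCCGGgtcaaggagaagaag
Hoxc6: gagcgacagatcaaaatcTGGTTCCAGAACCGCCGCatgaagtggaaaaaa
Over this stretch Hoxb8 and Hoxc6 shared 86.3% of their bases, and Hoxb13 and Hoxb8 shared 66.7%. Over the whole homeobox of 180 bases the identity between these 3 genes ran from 51.7% to 76.1%. The longest run of bases shared between Hox genes of different clusters was 52 bases, between Hoxa6 and Hoxb4. Within a cluster some annotated exons overlap on the same strand. Hoxd3 shares 62.3% of its exonic bases with Hoxd4 and Gm28230, Hoxd4 shares 52.3% with Hoxd3 and Gm28230, and Hoxc5 and Hoxc10 share 166 bases. How reads in such overlaps were counted is not given in the sources used here. The low or absent reads of these 4 genes are therefore uncertain.

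Promoters of the changed genes were compared for a site bound by HOX and PBX together. RefSeq promoter entries (GRCm38.p6) were found for 22 of the 39 genes, 24 windows in all, each 250 bases up to the start site. Hoxb8 and Hoxa9 were the changed genes with an entry, and their windows are shown 5′ to 3′ on the gene's strand. Capitals in the Hoxb8 window mark the match to TGATNNAT, searched on both strands. The Hoxb8 window lies at chr11:96281655-96281904 on the plus strand and the Hoxa9 window at chr6:52227371-52227620 on the minus strand.
Hoxb8: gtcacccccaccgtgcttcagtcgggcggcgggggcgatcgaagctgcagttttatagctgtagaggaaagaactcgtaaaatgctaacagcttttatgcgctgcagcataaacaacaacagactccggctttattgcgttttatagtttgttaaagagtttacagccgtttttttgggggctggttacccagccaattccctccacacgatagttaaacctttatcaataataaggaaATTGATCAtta
Hoxa9: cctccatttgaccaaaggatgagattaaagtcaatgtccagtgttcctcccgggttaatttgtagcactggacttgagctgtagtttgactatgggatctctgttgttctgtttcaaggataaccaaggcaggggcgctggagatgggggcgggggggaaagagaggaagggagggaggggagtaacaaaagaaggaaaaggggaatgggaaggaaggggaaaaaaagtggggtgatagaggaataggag
The match in the Hoxb8 window began 11 bases before the start site, and the Hoxa9 window held none. TGATNNAT was found in 4 of the 24 Hox windows (16.7%; Hoxa2, Hoxb1, Hoxb8 and Hoxd11), beside 7.68% of 32851 windows of all genes. The E-box CAGGTG, bound by the Zeb and Snail repressors and also searched on both strands, was found in 0 of the 24 Hox windows and in 17.2% of all windows. Hox windows held a median of 12.5 CpG per 250 bases, beside 6 over all windows, with 12 in that of Hoxb8 and 3 in that of Hoxa9. These matches describe letters, and no binding was measured.

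**Figure D1:**
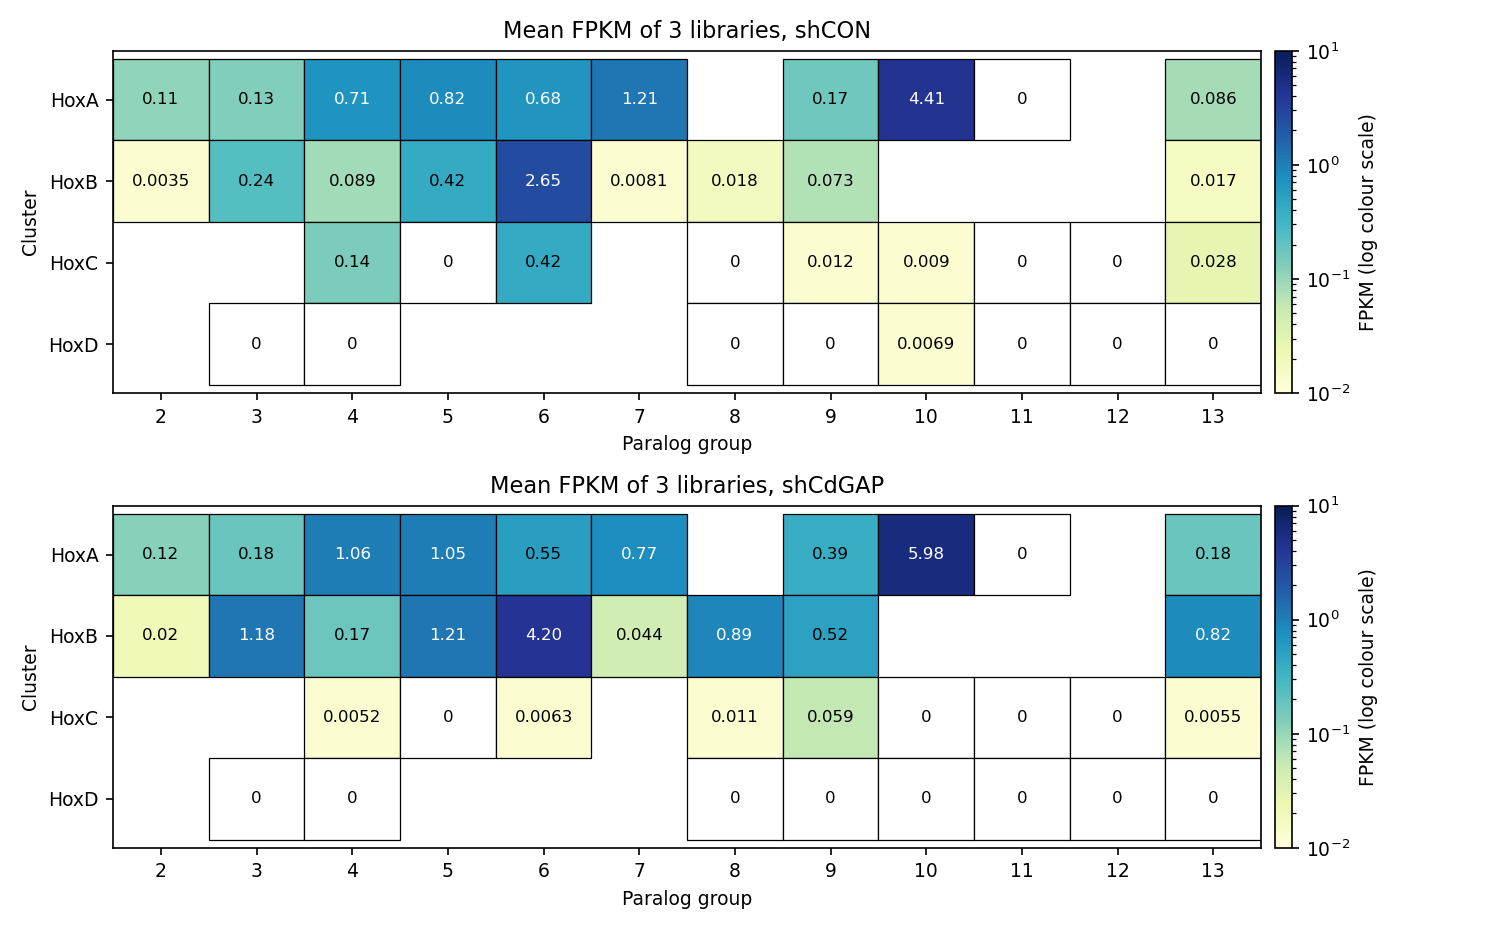
Mean FPKM of the Hox genes of paralog groups 2 to 13 over the 3 libraries of shCON (top) and shCdGAP (bottom), by cluster (rows) and paralog group (columns); places without a box have no gene, white boxes had no reads, and the colour scale is logarithmic. HoxA and the middle of HoxB carried most of the signal in both groups, with Hoxa10 at 4.41 and 5.98 FPKM, and HoxD was empty but for 1 read of Hoxd10.

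Expression was low and uneven across the clusters. A mean of at least 1 FPKM was reached by 7 Hox genes in shCdGAP and by 4 in shCON. Hoxa10, known for its part in the uterus and in blood, was the highest in both groups, and even its mean lay below those of most tested genes, at percentile 44.5 in shCdGAP and 38.3 in shCON. Hoxb6, a trunk gene, came next with 4.20 ± 1.31 FPKM in shCdGAP and 2.65 ± 0.359 FPKM in shCON (SD, n = 3). Hoxb5, Hoxb3, Hoxa4 and Hoxa5 had means from 1.05 to 1.21 FPKM in shCdGAP, and they did not differ beyond their spread, since the SD of Hoxb5 alone was 0.571 FPKM. In shCON, Hoxa7 had 1.21 ± 0.216 FPKM (SD, n = 3).

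HoxD was nearly silent. Of its 9 genes, on chromosome 2 from 74668310 to 74765142, 8 had no read in any library, and Hoxd10 had 1 read, in shCON replicate 3. A count of 0 allows up to 3 reads in a library, which is 0.112 to 0.156 CPM (reads scaled to depth alone) in these libraries, for counting error only. Hoxa11, Hoxb1, Hoxc5, Hoxc11 and Hoxc12 were the other genes with no reads. The group 11 and group 12 paralogs thus gave no reads in any cluster.

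The sum over HoxB was higher in shCdGAP. It was 7.37, 10.1 and 9.71 FPKM in shCdGAP replicates 1 to 3 and 3.16, 3.66 and 3.75 FPKM in shCON, so every shCdGAP library lay above every shCON library. The sum over HoxA overlapped between the groups, with 11.7 ± 2.0 FPKM in shCdGAP and 10.1 ± 0.882 FPKM in shCON (SD, n = 3). HoxC went in the other direction, with 0.0900, 0.0886 and 0.0817 FPKM in shCdGAP and 0.997, 0.521 and 0.307 FPKM in shCON. HoxB made up 43.6% of all Hox FPKM in shCdGAP and 24.9% in shCON, and HoxA 56.0% and 70.8%. These sums are descriptions and were not tested.

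**Figure D2:**
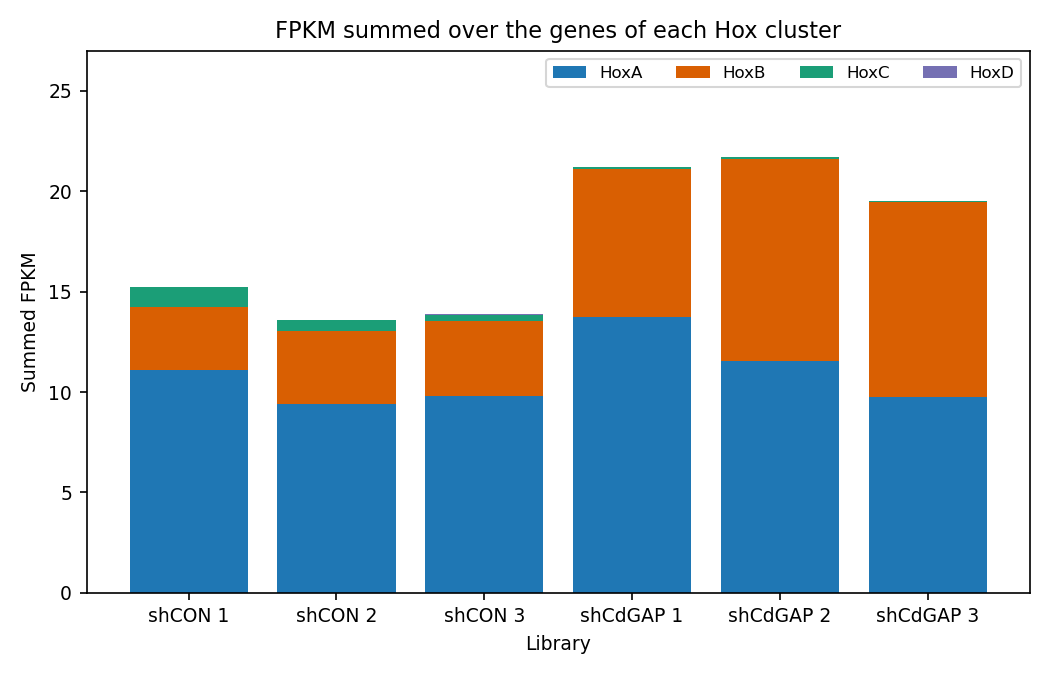
FPKM summed over the genes of each Hox cluster (stacked colours) in each of the 6 libraries. The HoxB part was 7.37 to 10.1 FPKM in the shCdGAP libraries and 3.16 to 3.75 FPKM in the shCON libraries, while the HoxA parts overlapped.

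In HoxB, on chromosome 11 from 96194316 to 96368256, 3 of the 6 tested genes were higher and none was lower, beside 9.92% higher and 11.1% lower over all tested genes. Of these 6, Hoxb8 and Hoxb13 entered the test through the reads of shCdGAP alone, and Hoxb9 mainly so. This share is therefore no evidence about the cluster. Hoxb8 is a trunk gene also known for blocking the maturation of blood progenitors. It read 0.929, 0.847 and 0.886 FPKM in shCdGAP replicates 1 to 3 and 0.0393, 0 and 0.0142 FPKM in shCON. All 3 shCdGAP libraries were high and close together, and shCON held 3 reads in all against 163. The ratio of reads per unit depth was 57.4, with a 95% interval of 19.3 to 281 that covers counting error only. The log2(FPKM + 1) difference was 0.89 (SE 0.052, limma adjusted p = 0.000236), a scale that understates the change of low genes.

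Hoxb13 is the most posterior gene of the cluster, known for its role in the prostate, and lies 74.0 kb from its nearest neighbour, Hoxb9. It read 0.733, 0.558 and 1.17 FPKM in shCdGAP and 0, 0.0330 and 0.0169 FPKM in shCON, where it had 3 reads against 128. Again no libraries of the groups overlapped, and shCdGAP replicate 3 was the highest. The ratio of reads per unit depth was 45.1, with a counting interval of 15.1 to 221. The log2(FPKM + 1) difference was 0.83 (SE 0.12, limma adjusted p = 0.00679).

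Hoxb3 is an anterior gene of the hindbrain and pharyngeal region. It read 1.13, 1.17 and 1.23 FPKM in shCdGAP and 0.195, 0.231 and 0.290 FPKM in shCON, a ratio of means of 4.93. The spread within each group was small beside the gap between them. The log2(FPKM + 1) difference was 0.81 (SE 0.065, limma adjusted p = 0.000652). Of its exonic bases 52.9% overlap the antisense gene Hoxb3os, and whether counting used strand is not given in the sources used here. Reads of the pair cannot be told apart. The table gave Hoxb3os itself 1 read in all. Hoxb3, Hoxb8 and Hoxb13 each passed in all 14 alternative settings in which they were tested, with highest adjusted p of 0.00857, 0.00471 and 0.0357.

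The genes between Hoxb3, Hoxb8 and Hoxb13 all had a higher mean in shCdGAP, but with all libraries limma called none of those it tested. Hoxb9, which takes part in mammary development with its group 9 paralogs, read 0.934, 0.195 and 0.422 FPKM in shCdGAP and 0.161, 0.0141 and 0.0436 FPKM in shCON. The groups did not overlap, but shCdGAP replicate 1 was far above the other libraries and limma did not call it (adjusted p = 0.115), unlike the fit without both libraries numbered 1 (adjusted p = 0.0202). Hoxb7, a gene studied in breast cancer, lies 1.31 kb after Hoxb8 and had 5 reads in shCdGAP and 1 in shCON, too few to test. The mean of Hoxb7 in shCdGAP was 0.0442 FPKM, below the 0.888 FPKM of Hoxb8. Its ratio of reads per unit depth was 5.28, with a counting interval of 0.591 to 250. A change of Hoxb7 can thus be neither shown nor excluded.

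Hoxb6 read 2.76, 5.33 and 4.51 FPKM in shCdGAP and 2.24, 2.87 and 2.85 FPKM in shCON. The lowest shCdGAP library, replicate 1, fell within the shCON range, and the difference of 0.48 on the log2(FPKM + 1) scale (SE 0.21) did not pass limma (adjusted p = 0.170). Without that library it passed (adjusted p = 0.00573). Hoxb5, a trunk and gut gene, read 0.659, 1.80 and 1.17 FPKM in shCdGAP and 0.446, 0.392 and 0.429 FPKM in shCON. Its groups did not overlap, yet limma did not call it (0.60 on the log2 scale, SE 0.19, adjusted p = 0.0698), and it passed without shCdGAP replicate 1 (adjusted p = 0.00287) and with quantile scaling (0.0491). Hoxb4, known for expanding blood stem cells, had 31 reads in shCdGAP and 17 in shCON, without overlap of the groups. Its ratio of reads per unit depth was 1.93, with a counting interval of 1.03 to 3.71. Hoxb2 had 5 reads in shCdGAP and 1 in shCON, and neither Hoxb4 nor Hoxb2 was tested. Genes on chromosome 11 with a mean of at least 3 FPKM had a median log2(FPKM + 1) difference of -0.11, beside -0.00084 for all such genes.

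**Figure D3:**
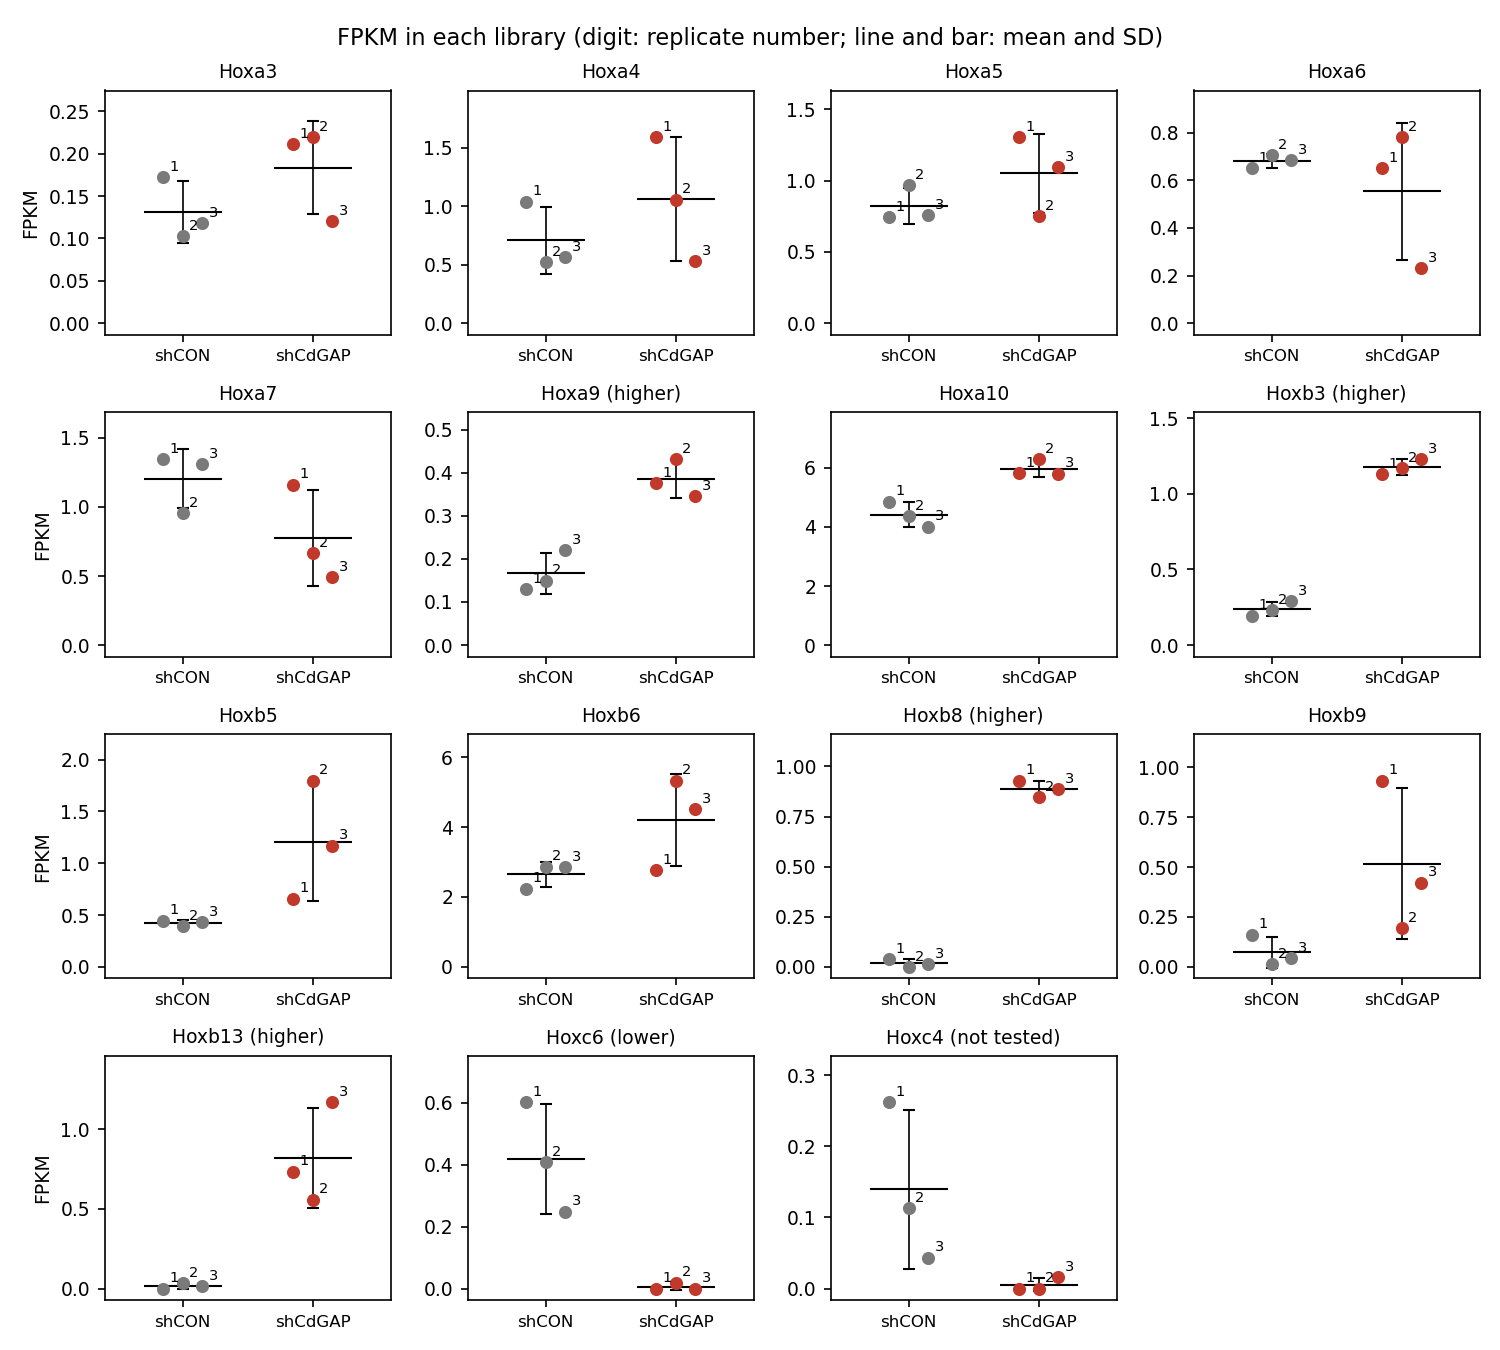
FPKM of 14 of the 15 tested Hox genes and of Hoxc4 in each library (points, with the replicate number), with the mean (line) and SD (bar) of the 3 libraries of each group; each panel has its own linear axis. Hoxb3, Hoxb8 and Hoxb13 show no overlap between the groups, while Hoxb6 does, through shCdGAP replicate 1.

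In HoxA, on chromosome 6, 1 of the 8 tested genes changed (12.5%), beside 21.0% of all tested genes. Hoxa9, a posterior gene best known from acute myeloid leukemia, read 0.376, 0.433 and 0.346 FPKM in shCdGAP and 0.130, 0.150 and 0.221 FPKM in shCON. Every shCdGAP library lay above every shCON library. The log2(FPKM + 1) difference was 0.25 (SE 0.056, limma adjusted p = 0.0274). The call was lost when replicate numbers entered the limma model as a block (adjusted p = 0.0677), on leaving out shCdGAP replicate 2 (0.0974) and on leaving out shCON replicate 1 (0.0746), 2 (0.118) or 3 (0.0582). Its adjusted p also missed the threshold with no filter on low genes (0.0681) and without limma's trend and robust step (0.0754).

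Hoxa10 lies beside Hoxa9 and had the most reads of any Hox gene. It read 5.82, 6.31 and 5.81 FPKM in shCdGAP and 4.86, 4.37 and 4.01 FPKM in shCON. The groups did not overlap, and the difference of 0.37 on the log2(FPKM + 1) scale (SE 0.10) lay just outside limma's threshold (adjusted p = 0.0527). It passed without shCdGAP replicate 1 (adjusted p = 0.0241), with quantile scaling (0.0376) and without the trend and robust step (0.0385).

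The other HoxA genes described here overlapped between the groups. Hoxa7, a trunk gene, read 1.16, 0.666 and 0.492 FPKM in shCdGAP and 1.35, 0.957 and 1.31 FPKM in shCON. The highest shCdGAP library, replicate 1, lay within the shCON range. Limma did not call Hoxa7 with all libraries (-0.33 on the log2(FPKM + 1) scale, SE 0.16, adjusted p = 0.207), and called it lower without shCdGAP replicate 1 (adjusted p = 0.0157). The antisense gene Hoxaas3 overlaps 20.4% of its exonic bases.

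Hoxa5, known as an activator of Trp53 in breast epithelial cells, had 1.05 ± 0.279 FPKM in shCdGAP and 0.823 ± 0.126 FPKM in shCON (SD, n = 3), and limma gave an adjusted p of 0.407. Hoxa4 had 1.06 ± 0.530 and 0.709 ± 0.287 FPKM (adjusted p = 0.473, limma), and Hoxa6 0.554 ± 0.288 and 0.681 ± 0.0280 FPKM (adjusted p = 0.569, limma). Hoxa3, a gene of the thymus and parathyroid, had 0.184 ± 0.0549 and 0.131 ± 0.0365 FPKM (adjusted p = 0.461, limma), and 25.4% of its exonic bases overlap antisense genes. None of these 4 genes was called in any alternative. Hoxa2 had 14 reads in shCdGAP and 12 in shCON, and Hoxa13, a limb and genital gene, 31 and 14, and both stayed below the filter.

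In HoxC, on chromosome 15 from 102921103 to 103036852, the reads of shCON came almost entirely from Hoxc6 and Hoxc4. Hoxc6, a thoracic gene that is also expressed in mammary tissue, read 0, 0.0189 and 0 FPKM in shCdGAP and 0.602, 0.408 and 0.248 FPKM in shCON. It had 1 read in shCdGAP against 71 in shCON, and every control library was above every depleted one. The ratio of reads per unit depth, shCON over shCdGAP, was 67.2, with a 95% counting interval of 11.7 to 2692. The log2(FPKM + 1) difference was -0.49 (SE 0.094, limma adjusted p = 0.0160). Leaving out shCdGAP replicate 2 (adjusted p = 0.0585) or shCON replicate 2 (adjusted p = 0.0657) ended the call.

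Hoxc4 follows Hoxc6 in order of start position, though the annotated Hoxc5, which had no reads, ends between them. Hoxc4 had 0, 0 and 1 read in shCdGAP and 13, 8 and 3 reads in shCON. The groups did not overlap, but the reads were too few for the limma test. The ratio of reads per unit depth, shCON over shCdGAP, was 22.7, with a counting interval of 3.71 to 934. Hoxc9 went the other way, with 5, 2 and 3 reads in shCdGAP and 1, 0 and 1 in shCON, a ratio of 5.28 with a counting interval of 1.13 to 49.6. Hoxc8, Hoxc10 and Hoxc13 had 2, 1 and 5 reads in all. Counted over all 39 genes, the groups did not overlap for 9 Hox genes that were higher in shCdGAP and 2 that were lower. Among the 15 tested these counts were 7 and 1, beside 44.1% of all tested genes in either direction (21.8% higher and 22.3% lower). The counts over all 39 genes include untested genes with few reads, such as Hoxc4 and Hoxc9, and have no share beside them. Of the tested genes without overlap, Hoxb8, Hoxb13 and Hoxc6 entered the test through the reads of a single group, and Hoxb9 mainly so. Neither pair of counts is therefore evidence about the clusters.

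**Figure D4:**
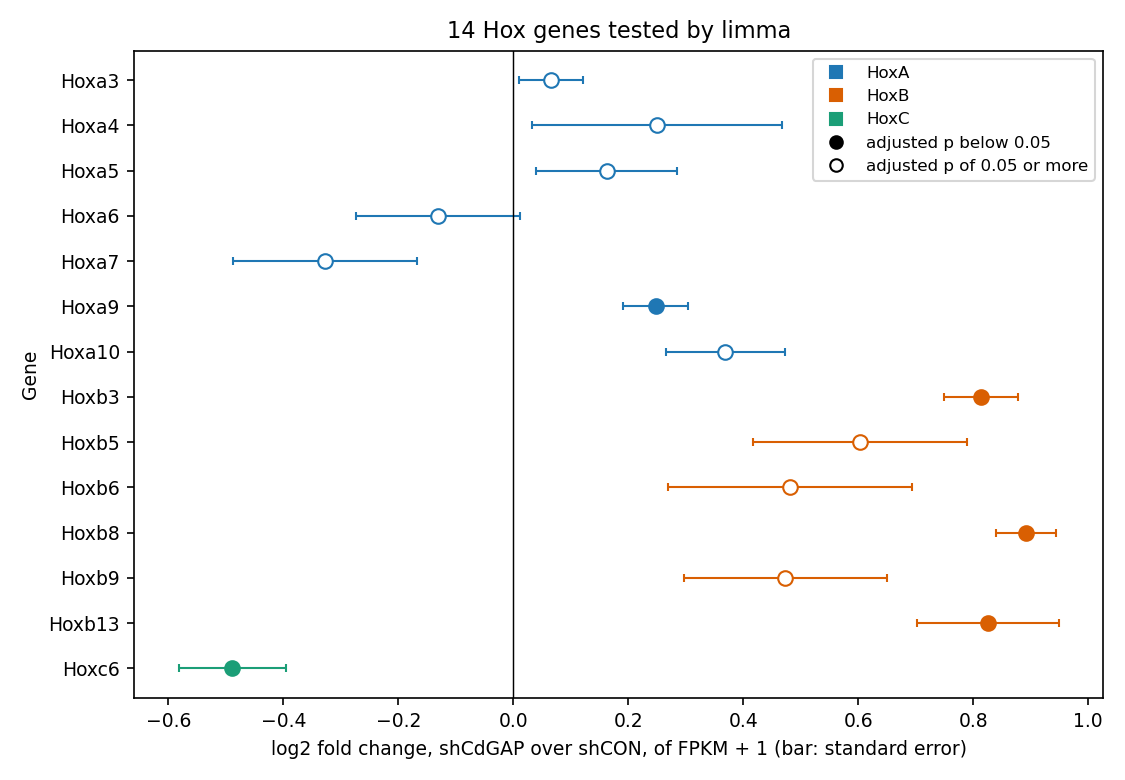
Difference of log2(FPKM + 1) between shCdGAP and shCON (x axis; positive is higher in shCdGAP) with its limma standard error for 14 of the 15 tested Hox genes, coloured by cluster; filled points passed an adjusted p of 0.05. The 6 HoxB genes lie to the right of 0, the HoxA genes lie on both sides, and Hoxc6 lies to the left.

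The authors' deposited table held a comparison of the same libraries, inferred to come from DESeq2, with an adjusted p for 20 of the 39 Hox genes. By the authors' deposited table, 7 were higher in shCdGAP (Hoxa9, Hoxa10, Hoxb3, Hoxb5, Hoxb8, Hoxb9 and Hoxb13) and 2 lower (Hoxc4 and Hoxc6). Over all genes with an adjusted p the share was 23.8% in either direction, 11.3% higher and 12.5% lower. The reads of Hoxb8, Hoxb13, Hoxc4 and Hoxc6 came almost entirely from a single group, and those of Hoxb9 mainly so. The counts of Hoxb and other Hox genes in that comparison are therefore no evidence about the clusters. In the authors' deposited table the log2 fold change was 4.49 for Hoxb8, 4.0 for Hoxb13, 2.20 for Hoxb3 and -3.58 for Hoxc6. The adjusted p-values of the authors' deposited table for Hoxa10 (0.0204), Hoxb5 (0.00341), Hoxb9 (0.00838) and Hoxc4 (0.0114) were past 0.05 where limma did not call or test the gene.

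The paralogs of a group can be compared within a library. In group 3, Hoxb3 made up 84.3%, 84.2% and 91.1% of the FPKM in shCdGAP and 53.1%, 69.2% and 71.1% in shCON. In group 6, Hoxc6 made up 17.2%, 10.2% and 6.56% of the FPKM in shCON and at most 0.308% in shCdGAP, and the rest came from Hoxb6 and Hoxa6. Group 13 rested mainly on Hoxb13 in shCdGAP, with 68.6%, 81.2% and 92.3%. In group 10, Hoxa10 held at least 99.4% in every library.

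The partners and regulators of Hox genes were followed through lists of genes. Of 10 tested genes on the list of TALE cofactors, 1 was lower and 0 were higher, beside 21.0% of all tested genes. No gene of the Pbx and Meis families, which bind DNA with Hox proteins, was called. The lower gene was Tgif2, a TALE repressor, with 1.13, 1.46 and 1.51 FPKM in shCdGAP and 5.42, 4.36 and 3.56 FPKM in shCON (limma adjusted p = 0.00426). Of 28 Polycomb genes 2 were higher and 1 lower (2 and 2 with the replicate block), beside the 21.0% over all genes. Ring1, a ubiquitin ligase of a Polycomb complex, rose from 2.53 ± 0.231 to 5.77 ± 0.232 FPKM and Scmh1 fell from 4.39 ± 0.597 to 1.87 ± 0.271 FPKM (SD, n = 3, limma adjusted p = 0.00195 and 0.00556). Cbx7, a reader of the Polycomb mark, rose from 0.0288 ± 0.00536 to 0.455 ± 0.183 FPKM (limma adjusted p = 0.0152), a call lost without any of the shCON replicates 1, 2 or 3 (0.0589, 0.0670 and 0.0632). Cbx7 entered the test through the reads of shCdGAP alone, so its place in the count is no evidence about the list.

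Of 16 Trithorax and H3K27 demethylase genes 3 were higher and 2 lower, or 31.2% beside the 21.0% over all tested genes. Hcfc2 fell from 10.6 ± 0.559 to 4.71 ± 0.182 FPKM (SD, n = 3, limma adjusted p = 0.00106). Kdm6a, which removes the Polycomb mark, rose from 7.89 ± 0.337 to 13.1 ± 1.58 FPKM (limma adjusted p = 0.0105), a call lost without shCON replicate 2 (0.0589) or 3 (0.0595). Ash2l, a core subunit of the H3K4 methyltransferases, was higher (12.6 to 22.9 FPKM) and the methyltransferase gene Kmt2d lower (5.84 to 3.89 FPKM), with limma adjusted p of 0.0135 and 0.0179. The call of Ash2l was lost without shCdGAP replicate 2 (0.0539) or shCON replicate 1 (0.0537), 2 (0.0683) or 3 (0.0593), and that of Kmt2d without shCdGAP replicate 3 (0.0532) or shCON replicate 1 (0.0549), 2 (0.101) or 3 (0.0786). The list without shCON replicate 2 or 3 had 0 higher genes.

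Of 12 tested genes of the retinoic acid pathway 1 was higher and 3 were lower, beside 9.92% and 11.1% of all tested genes. Cyp26b1, which degrades retinoic acid, read 0.198, 1.15 and 1.39 FPKM in shCdGAP and 5.62, 7.90 and 9.49 FPKM in shCON (limma adjusted p = 0.00527). Crabp1, which carries retinoic acid in the cytoplasm, had no reads in shCdGAP and 0.645, 1.27 and 1.12 FPKM in shCON, at least 6.26-fold lower against a floor of 3 reads per library (limma adjusted p = 0.00361). Crabp1 entered the test through the reads of shCON alone, so its place in the count is no evidence about the pathway. Dhrs3, which reduces retinaldehyde, rose from 1.40 ± 0.159 to 5.07 ± 1.96 FPKM (SD, n = 3, limma adjusted p = 0.0116), a call lost without shCON replicate 1 (0.0540) or 2 (0.0528). Rxra, a retinoid receptor gene, fell from 12.6 to 9.34 FPKM (limma adjusted p = 0.0387). Its call was lost with the replicate block (0.0518), with quantile scaling (0.0504), with no filter on low genes (0.0582) and without any 1 library other than shCdGAP replicate 1, where its adjusted p was between 0.0720 (shCdGAP replicate 3 left out) and 0.162 (shCON replicate 3 left out).

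Among homeobox genes outside the clusters the values moved both ways. Cdx4, a caudal-type gene that acts upstream of Hox genes in the embryo, had no reads in shCdGAP and 0.501, 0.426 and 0.628 FPKM in shCON, at least 7.86-fold lower against the floor of 3 reads per library (limma adjusted p = 0.00177). It was the only tested gene of the Cdx and ParaHox list, and it entered the test through the reads of shCON alone. Of 25 other homeobox genes tested 3 were higher and 5 lower, beside 21.0% of all tested genes called in either direction. With the replicate block these counts were 1 and 4, beside 2458 of all 13483 genes. Msx1 was at 0 in all shCdGAP libraries and at 2.29, 1.31 and 1.24 FPKM in shCON (limma adjusted p = 0.00251). Prrx2 fell from 3.80 ± 0.523 to 0.0297 ± 0.0515 FPKM, and Lhx6 fell from 4.26 ± 0.369 to 0.703 ± 0.0876 FPKM (SD, n = 3, limma adjusted p = 0.000138 and 0.000311). Msx1 and Prrx2 entered the test through the reads of shCON alone, so their place in the counts is no evidence about the list. Without shCdGAP replicate 1 the counts of higher and lower genes were 6 and 3 for the Polycomb list, 4 and 3 for the Trithorax list, 2 and 5 for the retinoic acid list, 6 and 8 for the other homeobox genes and 0 and 1 for the TALE cofactors, while the share of all tested genes that limma called rose to 39.9%.

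**Figure D5:**
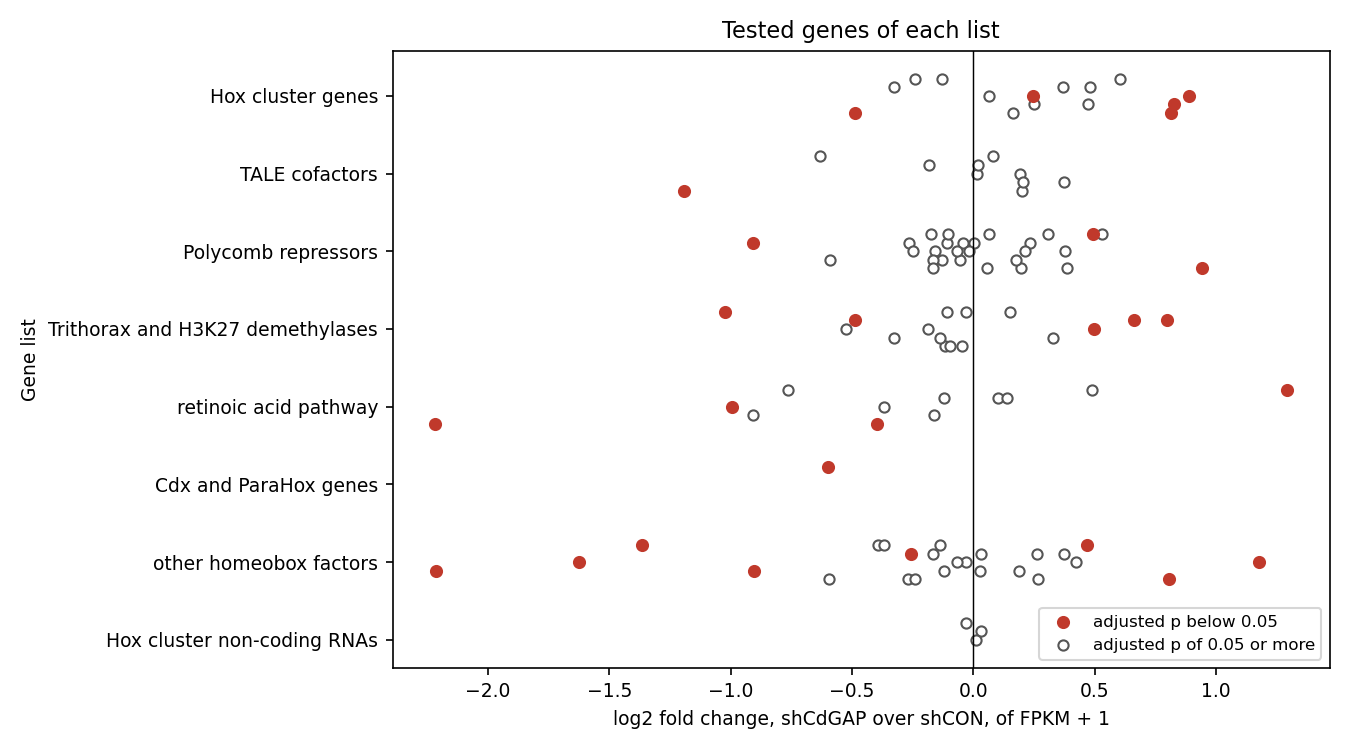
Difference of log2(FPKM + 1) between shCdGAP and shCON for each tested gene (points; vertical offsets only separate them) of the Hox clusters and of 7 lists of partners, regulators, other homeobox genes and non-coding RNAs; red points passed a limma adjusted p of 0.05. Red points lie on both sides of 0 for the Hox clusters and for the Polycomb, Trithorax, retinoic acid and other homeobox lists, the TALE and Cdx lists hold 1 red point each, left of 0, and the non-coding RNAs hold none.

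None of the tested non-coding RNAs inside the clusters passed the test. Hotairm1, in HoxA, read 5.38, 3.42 and 3.77 FPKM in shCdGAP and 4.90, 3.55 and 4.34 FPKM in shCON, and the groups overlapped (limma adjusted p = 0.928). Hoxaas3 and Hoxaas2 lay at 0.119 to 0.261 FPKM in group means, with limma adjusted p of 0.938 and 0.782. Limma called 0 of the 3 tested RNAs, 0 had an unadjusted p under 0.05, and limma-voom and the authors' deposited table called 0. The directions of these 3 genes changed with the setting. Hotair and Haglr had no reads.

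The genes that flank the clusters were taken as the 2 nearest protein-coding genes on each side. Of the 11 tested, 1 was higher and 0 lower, beside 21.0% of all tested genes called in either direction. The higher gene was Atp5g2, a subunit of ATP synthase 249 kb from HoxC, with 74.3, 59.3 and 65.0 FPKM in shCdGAP and 47.7, 41.3 and 45.3 FPKM in shCON (limma adjusted p = 0.0241), and the call was lost without shCdGAP replicate 3 (0.0587) or shCON replicate 1 (0.0573), 2 (0.112) or 3 (0.0935). Evx1 and Evx2, homeobox genes beside HoxA and HoxD, had no reads, and Ttll6, 28.9 kb from Hoxb13, and Skap1 and Calcoco2 at HoxB had too few to test. Snx11, the other gene flanking HoxB, had 5.33 ± 1.96 FPKM in shCdGAP and 6.98 ± 0.989 FPKM in shCON (SD, n = 3, limma adjusted p = 0.361).

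Levels of markers of other cell types were summed for each library, and these sums were not tested. The summed FPKM of 6 endothelial markers was 0.00851 to 0.0592 in shCdGAP and 0.304 to 0.331 in shCON, with Emcn at 0 in all libraries. Limma called 0 of the 2 endothelial markers it tested, where 1 had an unadjusted p under 0.05, limma-voom called 2 and the authors' deposited table called 3 of the list. The sum of 5 adipocyte markers was 0.697 to 1.49 in shCdGAP and 3.88 to 5.24 in shCON, with both tested markers, Fabp4 and Cidec, lower and Plin1 at 0. The sum of 8 leukocyte markers was 3.30 to 9.86 and 13.2 to 17.9, with Adgre1 at 0, and Itgam higher and Cd68 lower. The limma calls of Fabp4, Cidec, Itgam and Cd68 were lost when certain single libraries were left out, with adjusted p of up to 0.0531 and 0.0709 (without shCON replicates 3 and 2), 0.0771 (without shCON replicate 3) and 0.151 (without shCON replicate 1), and that of Cidec also with the replicate block (0.0563). The sum of 8 basal markers was 0.719 to 2.34 and 0.587 to 0.756, with Acta2 at 0, Krt5 lower and Cnn1 higher (a call lost without any of the shCON replicates, at 0.0771 to 0.0861), and that of 9 fibroblast markers was 0.598 to 1.10 and 0.817 to 0.980, with Lum and Thy1 at 0 and 0 of 2 tested markers called by limma, by limma-voom or at an unadjusted p under 0.05. Of 12 luminal markers 8 were tested, with Cdh1 higher, Epcam and Foxa1 lower, and Csn2, Pgr and Wap at 0. Epcam, Krt5, Cnn1 and Itgam entered the test through the reads of a single group. Over all tested genes limma called 21.0% and limma-voom 21.8%, and the authors' deposited table called 23.8% of the genes with an adjusted p. With so few tested markers per list, the counts of called markers are no evidence about a cell type. The part of these cell types in the Hox differences was not tested, and in RNA from a whole culture fewer cells of a type and less RNA per cell cannot be told apart.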

How the data were processed

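DESeq2, featureCounts, TopHat2 2.0.13 and Trimmomatic, with the build mm10, are named without roles in the submitters' processing notes. Which annotation release they counted on, and whether by strand, is not given in the sources used here. The authors deposited FPKM values per library, already divided by size factors. Per the file headers, the same deposited table gives the authors' DESeq2 comparison as a mean signal per gene, a log2 fold change, a Wald score, a raw p-value and an adjusted one. Whole reads were recovered for 100% of values (tolerance 1e-06) and served for depth, the filter and limma-voom, and 0 columns belonged to other samples.

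The filter asked for 10 or more depth-scaled reads in 3 or more libraries and 15 in all, which left 13483 of 22322 with reads. The design allowed for raw counts, but the table holds FPKM, so limma (3.58.1, R 4.3.3) was fitted on log2(FPKM + 1) with the group as its term, trend and robust steps, 2-sided p-values adjusted by Benjamini-Hochberg over all genes and a threshold of 0.05. This scale understates changes of low genes. Gene positions came from GENCODE M21, which held 40254 of the identifiers. Intervals are exact at 95% and cover counting error only.

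The Hox genes and the lists were chosen with earlier results of these data known. Named genes are all 39 Hox genes, Arhgap31, the 2 nearest protein-coding genes on each side of a cluster, and up to 4 genes per list with the smallest p among those past the threshold, or else the highest mean FPKM. Other names are marked or are given because they are at 0. After removing group means, libraries with the same number correlated over genes at 0.43, 0.39 and 0.34, which met the rule for pairs. Every main p-value still comes from the fit without the block, and the replicate block is an alternative. Such pairing comes from the data, not the labels, and shCdGAP 2 correlated with shCON 3 at 0.35. In reads simulated for this comparison over 13483 genes, a random sample of genes was changed. Limma recovered 86% of 2-fold and 100% of 4-fold increases, 74% of decreases to 0.5 and 98% of decreases to 0.25. Of its calls, 5.29% fell on unchanged genes. The simulation gave all genes the same spread beyond counting error and held no library that stood apart. These shares may therefore not hold for the real libraries, where shCdGAP replicate 1 stood apart. Alternatives were other scalings, a pseudocount of 0.1 FPKM, other filters, limma-voom, no trend or robust step, a replicate block, and leaving out libraries. Python 3.11.15, numpy 2.4.6, pandas 2.3.3, scipy 1.17.1, Biopython 1.88 and matplotlib 3.10.9 made the tables and plots. Of the genes in these counts, 2 are not reported here by name.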

Additional observations from a re-analysis of the deposited data

How the results depend on the processing

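Of 212 values of tested Hox genes under the alternatives, 188 kept their direction and their side of the threshold, 9 lost the call, 14 gained one and 1 changed sign, Hoxa6, at -0.24 to 0.029 when 1 library was left out. The count of all genes called was 2838, between 1237 and 5373 when 1 library was left out, and 6506 without both libraries numbered 1. Hox genes called higher numbered 4, between 3 and 7 when 1 library was left out, and 8 without both libraries numbered 1. Hox genes called lower numbered 1, between 0 and 3 when 1 library was left out, and 3 without both libraries numbered 1. With a mean of at least 5 CPM 0 were called higher and 0 lower, because among Hox genes that filter left only Hoxa10 and Hoxb6 in the test. With the replicate block 2458 genes were called, and 3 Hox genes were higher and 1 lower, since Hoxa9 missed the threshold and no other Hox call changed. Among the other named genes the sign changed as 1 library was left out for Hotairm1 (-0.19 to 0.076), Hoxaas3 (-0.032 to 0.045), Hoxaas2 (-0.014 to 0.085), Calcoco1 (-0.18 to 1.31), Hibadh (-0.052 to 0.14) and Cbx5 (-0.045 to 0.20). It also changed for Hoxaas3 with library size scaling (-0.0036) and for Vwf (0.0098) and Cbx5 (-0.011) with quantile scaling, and without both libraries numbered 1 for Hoxaas3 (-0.0039) and Hibadh (-0.030). The cause was not tested. Depth limits what could be detected, since 7 of the 26 Hox genes with reads had under 15 in all.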
